A study of Homo sapiens with 4 samples.

Results

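Expression in MV4-11 cells that carried either of the 2 hairpin RNAs labelled as profound knockdowns of RUNX1 was compared with expression in MV4-11 cells that carried the hairpin labelled as a moderate knockdown. MV4-11 is a cell line from a human acute myeloid leukaemia. It resembles immature monocytes and carries a KMT2A-AFF1 fusion. Each group was 1 culture of this line, given 1 short hairpin RNA by transduction, incubated with 3 µM doxycycline for 24 h, and read on 1 whole-transcript array. The comparison therefore uses 3 of the 4 arrays in the series; the fourth holds cells with a hairpin against luciferase, the control, and its values are given beside the others. All groups share the cell line, the transduction and the doxycycline.

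For each gene the level in the array labelled moderate was subtracted from the level in the array labelled profound 1 and, separately, from that in the array labelled profound 2. A gene counted as higher or lower where both differences had the same sign. Genes were described where at least 1 of the 3 arrays read 4.5 log2 units or more, which left 9722 of 22357 genes with a probe set of a single symbol (43.5%). Just inside this minimum lay MSMB, whose highest value was 4.5 in profound 1 against 2.47 in moderate and 2.46 in profound 2, and ZNF343 with 4.5 in profound 1, 3.90 in moderate and 3.96 in profound 2. Just outside lay B9D1, at 4.45, 4.47 and just under 4.5 in moderate, profound 1 and profound 2, and PTOV1-AS1, at just under 4.5, 4.49 and 4.47. With 1 array per group no difference has a replicate check and no test was made. A difference of at least 1.5-fold (0.58 log2 units) in both arrays was used as a rule of size.

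RUNX1 is the DNA-binding subunit of core binding factor, which it forms with the partner protein CBFB. It sets the expression of many genes of blood cell development, both as an activator and as a repressor, and acts beside the related factors RUNX2 and RUNX3. In leukaemia cells with KMT2A fusions it is part of the transcriptional network that keeps the cells in an immature state.

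RUNX1 itself did not separate the labels well. Its probe set, which is also assigned to LOC100506403, read 4.27 in control, 4.33 in moderate, 4.07 in profound 1 and 4.04 in profound 2, so both arrays labelled profound were the lowest and moderate was the highest. The differences from moderate were -0.25 and -0.28 log2 units, and 5.05% of the genes described had differences at least this low in profound 1 and in profound 2. The probe set lies below the level minimum of 4.5 in all 4 arrays and is not itself among these genes, whose dimmest members spread more widely than the rest. Because the array labelled moderate did not read below control, directions below are directions between labels. RUNX3 read 8.17 in control, 8.28 in moderate, 7.75 in profound 1 and 7.74 in profound 2. Its differences from moderate were -0.53 and -0.54, just short of 1.5-fold, and 0.710% of genes were as low or lower in both. RUNX2 (6.16 in moderate, 6.17 and 6.33 in the arrays labelled profound 1 and 2) and CBFB (9.30, 9.28 and 9.48) were within 0.17 log2 units of moderate. One label field of profound 1 and profound 2 gives RUNX2 and RUNX3 as the target, against RUNX1 in the sample name and genotype.

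The myeloid identity of the cells was visible in each array. LYZ, which encodes lysozyme, lay between 11.34 and 11.57 log2 units, the receptor kinase gene FLT3 between 9.28 and 9.46, and CSF1R, the receptor for macrophage colony-stimulating factor, between 7.39 and 7.79. ITGAM, an integrin of mature monocytes, stayed between 3.78 and 3.89, below the level minimum. Of 31 measured markers of other blood lineages and of stromal and epithelial cells, 3 passed the level minimum (PF4, CD79A and NKG7). Over the genes described, the spread of the difference from moderate, as a robust SD from the median absolute deviation, was 0.24 in profound 1 and 0.19 in profound 2. It narrowed with level, from 0.29 and 0.27 in the dimmest 2431 genes to 0.19 and 0.13 in the brightest 2431. Between moderate and control it ran from 0.22 to 0.11. These values hold measurement noise and real differences together.

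Both arrays labelled profound stood on the same side of moderate in 5889 of the 9722 genes, 2571 higher and 3318 lower. Both differences subtract the same array, so a deviation of the array labelled moderate moves both together, and this count does not show agreement between hairpins. At 1.5-fold in both, 34 genes were higher (0.35% of genes described) and 49 were lower (0.504%). At 2-fold in both, 6 were higher (0.0617%) and 3 lower (0.0309%). Taken singly, profound 1 was 1.5-fold above moderate in 171 genes (1.76%) and below it in 390 (4.01%), and profound 2 was above it in 94 (0.967%) and below it in 172 (1.77%). Centring each array on its median turned the split of 34 higher and 49 lower into 42 and 34. The medians of the arrays over the genes described were 6.45 in moderate, 6.41 in profound 1 and 6.43 in profound 2. The 34 higher genes comprised 20 protein-coding genes and the 49 lower genes 41, against 8825 of the 9722 genes described. The level minimum bears on these counts: 19 of the 34 passed it through the arrays labelled profound alone, and 20 of the 49 through moderate alone.

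**Figure D1:**
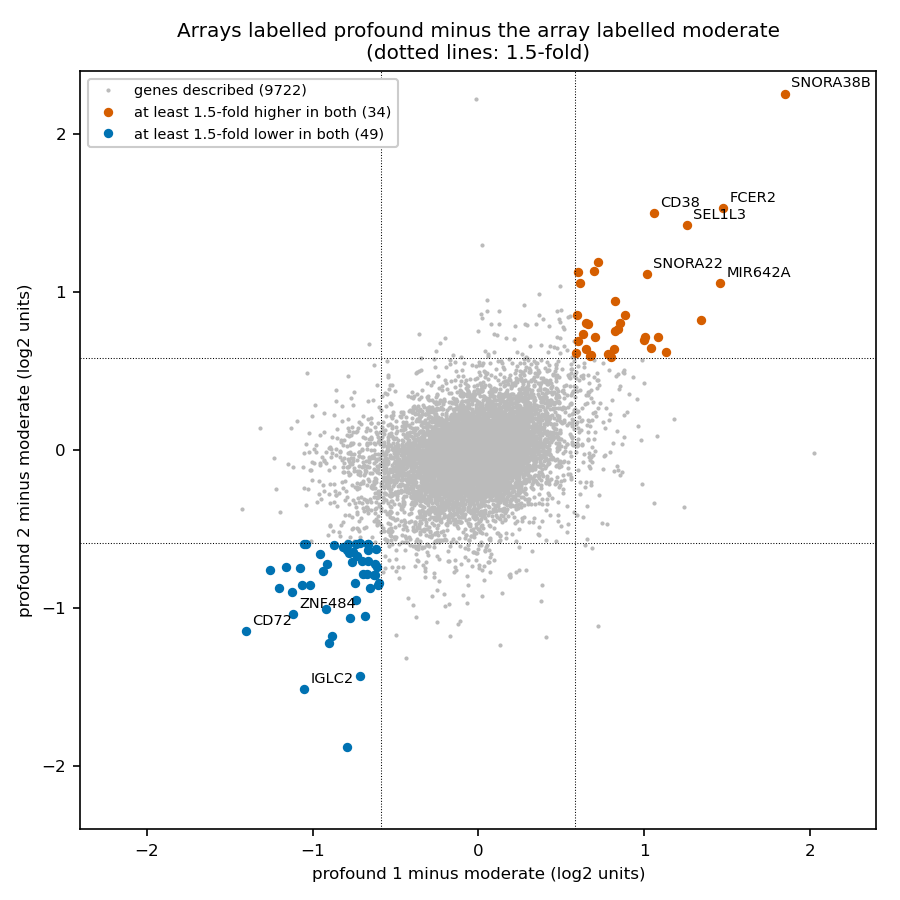
Difference of each described gene from the array labelled moderate, profound 1 on the horizontal axis and profound 2 on the vertical axis (log2 units). Grey points are the 9722 genes described, orange points the 34 genes at least 1.5-fold higher in both and blue points the 49 at least 1.5-fold lower in both; SNORA38B lies furthest up and CD72 furthest left among the coloured points.

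Surface antigens of blood cells were among the protein-coding genes with the largest differences in both directions. FCER2, the low-affinity IgE receptor CD23, read 6.08 in control, 5.53 in moderate, 7.01 in profound 1 and 7.06 in profound 2. It was 2.79-fold and 2.90-fold higher than in moderate, and control lay between. CD38, an ectoenzyme that consumes NAD, read 3.78 in control, 3.73 in moderate, 4.79 in profound 1 and 5.23 in profound 2. It was 2.08-fold and 2.83-fold higher, and control and moderate were alike. CD72, a lectin-like inhibitory receptor known from B cells, went the other way: it read 4.61 in control, 5.25 in moderate, 3.84 in profound 1 and 4.10 in profound 2. It was 2.65-fold and 2.22-fold lower, and moderate was the highest of the 4 arrays. The tetraspanin gene TSPAN13 differed by -1.07 and -0.86 log2 units and SIGLEC7, an inhibitory sialic acid receptor, by -0.74 and -0.95. SIGLEC5 was at -0.73 and -0.50, short of 1.5-fold in profound 2. Of 20 described members of the surface antigen list, 2 were 1.5-fold higher in both and 3 lower, against 0.35% and 0.504% of all genes described. Of these, CD38 passed the level minimum through the arrays labelled profound alone, and CD72 and TSPAN13 through moderate alone. The count therefore rests in part on the values that let these genes in. The list's medians were -0.15 and -0.20, against -0.02 in both arrays over all genes.

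Antigen receptor genes lay on both sides of moderate. Of 46 immunoglobulin and T cell receptor segments described, 23 were higher in both arrays and 11 lower, with medians of 0.11 and 0.14. Over all genes described, 26.4% were higher in both and 34.1% lower, with medians of -0.02 in both arrays. Of the 46, TRBV23OR9-2 upward and IGLC2 downward passed 1.5-fold in both, against 0.35% of all genes described upward and 0.504% downward. TRBV23OR9-2 passed the level minimum through profound 1 alone (4.54, against 3.46 in moderate). The 46 follow the annotated gene type and leave out IGHV1OR15-9, a segment annotated as a pseudogene. It was also 1.5-fold higher in both (0.65 and 0.81) and passed the level minimum through profound 2 alone. IGLC2, a constant segment of the lambda light chain, read 5.41 in control, 6.25 in moderate, 5.20 in profound 1 and 4.74 in profound 2. IGLL1, a surrogate light chain gene of early B cells, read 3.94, 4.84, 4.23 and 3.98 in the same order, and its smaller difference was -0.56, below 1.5-fold, once the arrays were centred. In both genes moderate was the highest array. Of the B cell markers measured, MS4A1 (CD20) stayed between 1.89 and 2.05 and PAX5 between 3.07 and 3.31, below or near the median of all probe sets (3.07 to 3.09). CD79A read 4.20 in control, 4.64 in moderate, 4.80 in profound 1 and 4.12 in profound 2. The summed level of these 3 markers was 9.49, 9.77, 10.11 and 9.08, so neither CD79A nor the sum followed FCER2 and CD38 or CD72 across the arrays. Light chain segments are close copies of each other, so the IGLC2 and IGLL1 signals may hold reads of related genes.

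Macrophage and innate receptor genes differed in both directions. CD68, a lysosomal glycoprotein of macrophages, was among the brighter genes, at 9.28 in control, 9.14 in moderate, 9.98 in profound 1 and 9.91 in profound 2. It was 1.79-fold and 1.71-fold higher than in moderate. CLEC10A, a galactose-binding lectin of macrophages and dendritic cells, read 5.43 in control, 5.32 in moderate, 4.06 in profound 1 and 4.56 in profound 2, with differences of -1.26 and -0.76. FCER1G, the signalling chain of Fc receptors, read 7.56, 8.12, 7.5 and 7.49 in the same order, so that moderate stood apart from the other 3 arrays. Its smaller difference from moderate was -0.62, and it was -0.57, below 1.5-fold, once the arrays were centred. Of 13 described monocyte and macrophage genes, 1 was 1.5-fold higher in both (CD68) and 2 lower (CLEC10A and FCER1G). Over all genes described the shares were 0.35% and 0.504%. The list's medians were -0.11 in both arrays. MS4A7 was at 0.65 and 0.29 and CSF1R at -0.40 and -0.13. The same list had a median of 0.29 in moderate against control.

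Secreted and granule proteins followed. RNASE6, an antimicrobial ribonuclease of monocytes, read 7.60 in control, 8.07 in moderate, 7.17 in profound 1 and 6.86 in profound 2, differences of -0.90 and -1.22 log2 units from moderate. MMP2, the matrix metalloproteinase gelatinase A, read 8.01, 8.34, 7.42 and 7.33 in the same order. Its second probe set is near the floor (2.23 in moderate), and in the mean of both the smaller difference was -0.58, just short of the size rule. F3, which encodes tissue factor, the starter of blood coagulation, read 6.96, 7.21, 6.09 and 6.31. In RNASE6, MMP2 and F3 both arrays labelled profound lay below control and moderate. Of 13 described granule genes 0 were 1.5-fold higher in both and 1 (RNASE6) was lower, against 0.35% and 0.504% of all genes described. The azurophil granule genes CTSG (-0.89 and -0.48) and ELANE (0.27 and 0.23), which encode cathepsin G and neutrophil elastase, lay on opposite sides of moderate.

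Cytokine receptors and cytokine genes showed few shared differences of this size. IL7R, the receptor for interleukin 7, read 6.84 in control, 7.14 in moderate, 5.94 in profound 1 and 6.27 in profound 2. It was 2.30-fold and 1.83-fold lower than in moderate, and both arrays labelled profound were below control. Of 26 described cytokine receptor genes it was the 1 gene 1.5-fold different in both, against 0.854% of all genes described. The others of largest shared difference were IL12RB1 (-0.45 and -0.46), IL2RG, the common gamma chain (-0.62 and -0.33) and IFNGR1 (0.41 and 0.30). TNF read 7.73, 7.69, 6.93 and 6.99 and TNFAIP3, an NF-kB inhibitor induced by TNF, 6.28, 6.32, 5.66 and 5.54 in control, moderate, profound 1 and profound 2. For both, control and moderate were alike and both arrays labelled profound were lower. They were the 2 of 16 inflammatory genes that reached 1.5-fold in both, against 0.854% of all genes described. NFKBIE (0.42 and 0.62) was on the other side, and the list's medians were 0.08 and 0.01. CCL23, a chemokine gene, read 4.56, 4.57, 5.16 and 5.42. It was the 1 of 8 described chemokine and chemokine receptor genes to differ by 1.5-fold in both, upward, against 0.854% of all genes either way. ALOX5AP, needed for leukotriene synthesis, read 8.42, 8.71, 8.09 and 7.92, and FUT7, which builds selectin ligands, read 5.91, 6.07, 5.46 and 5.33. Both fell short of 1.5-fold once the arrays were centred (-0.58 and -0.57).

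Further genes among the 20 furthest below moderate belong to no list that was counted. NRP1, a co-receptor for semaphorins and VEGF, read 5.28 in control, 5.62 in moderate, 4.46 in profound 1 and 4.88 in profound 2. MCEMP1, a single-pass membrane protein of myeloid cells, read 6.42, 6.79, 5.78 and 5.94. GAPT, an adaptor that binds GRB2, spread most: it read 4.88, 6.17, 5.38 and 4.29, and control lay within the range of both arrays labelled profound. KCNK17, a background potassium channel gene, read 4.42, 5.18, 4.40 and 4.11, and CORO2A, a coronin gene, read 4.05, 4.96, 4.03 and 4.20. In KCNK17 and CORO2A it was moderate that stood apart from the other 3 arrays. In GAPT moderate was the highest, but the other 3 were themselves spread from 4.29 to 5.38.

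SOX4, a transcription factor linked to immature and leukaemic cells, read 8.69 in control, 9.08 in moderate and 8.38 in both arrays labelled profound, a difference of -0.70 in each. MACROH2A2, a histone variant of silent chromatin, read 6.22, 6.24, 5.5 and 5.57, with control and moderate alike. ZNF484, a zinc finger gene, read 4.99, 5.27, 4.15 and 4.23 and was the third gene, with CD72 and IGLC2, to be 2-fold lower in both. SYCE2, of the synaptonemal complex, differed by -0.91 and -0.72 and BEND6 by -0.71 and -1.43. The remaining lower genes among the first 20 were the long non-coding RNA genes LOC100134868 (-0.75 and -0.84) and LCT-AS1 (-1.07 and -0.75).

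Of 24 described genes of the lysosome list 0 were 1.5-fold different in both, and the medians were 0.10 and 0.02. SCARB2 (0.84 and 0.48), MCOLN2 (0.59 and 0.50) and ATP6V1A (0.56 and 0.30) had the largest smaller differences. The genes that follow were higher at 1.5-fold in both and belong to no list that was counted. SEL1L3, a membrane protein related to the endoplasmic reticulum factor SEL1L, read 6.08 in control, 5.55 in moderate, 6.80 in profound 1 and 6.97 in profound 2. It was 2.39-fold and 2.69-fold higher than in moderate, and control lay between. SORL1, a sorting receptor, read 4.45, 4.69, 5.69 and 5.39, and here moderate was above control and both arrays labelled profound were higher still. RILP, which tethers lysosomes to the dynein motor, read 5.04, 4.78, 5.48 and 5.49. ATP6V1E1, a subunit of the vacuolar proton pump, read 7.36, 6.71, 7.56 and 7.51, and DYNLT1, a dynein light chain, read 4.95, 4.23, 4.89 and 5.02. In the last 2 genes control was close to the arrays labelled profound and moderate stood apart. CCDC47, an endoplasmic reticulum protein, differed by 0.68 and 0.61 at a high level (8.89 in moderate). H6PD, which starts the pentose phosphate pathway inside the endoplasmic reticulum, read 3.60, 3.49, 4.83 and 4.31.

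The other higher genes among the first 20 were mostly dim in the array labelled moderate or belong to families of close copies. THSD7A, a membrane protein with thrombospondin repeats (0.82 and 0.75), and SMIM3, a small membrane protein (0.70 and 1.14), read 5.03 and 6.07 in moderate. PTPRN2-AS1 (0.88 and 0.86), the pseudogene GOLGA2P7 (0.83 and 0.95), FOXD4L1 (1.00 and 0.72) and the receptor segment TRBV23OR9-2 (1.08 and 0.72) read between 3.46 and 4.5 there. IGHV1OR15-9, an orphan heavy chain segment, was at 0.65 and 0.81, but its second probe set was at -0.46 and 0.15. Signals of GOLGA2P7, FOXD4L1 and IGHV1OR15-9 may be shared with related genes.

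**Figure D2:**
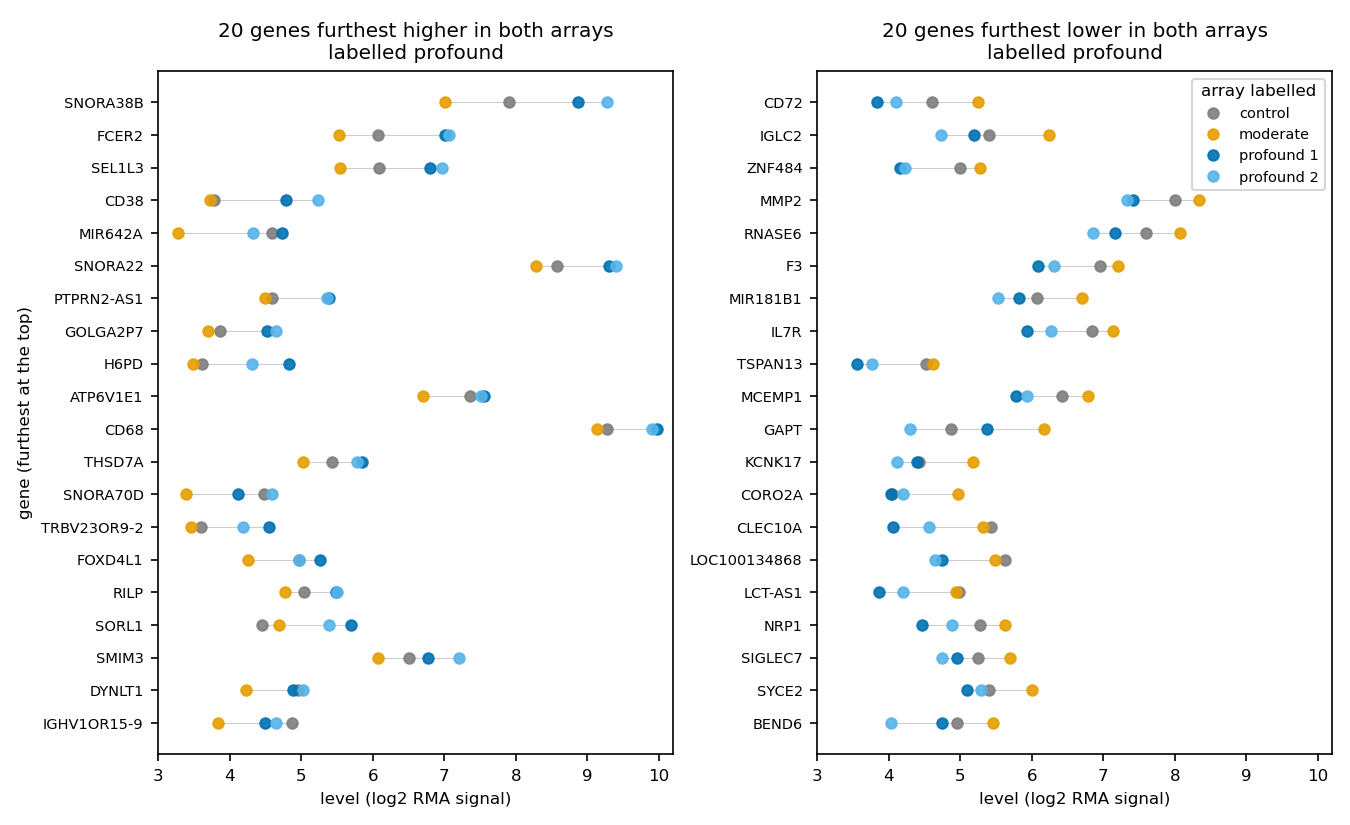
Levels (log2 RMA signal, horizontal axis) of the 20 genes furthest above moderate in both arrays labelled profound (left) and the 20 furthest below (right), 1 point for each of the 4 arrays. SNORA38B, FCER2 and SEL1L3 show control between moderate and the arrays labelled profound. CD38 and CLEC10A show control beside moderate, and CORO2A and MIR642A show moderate apart from the other 3.

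Small RNA genes included the furthest gene of all. SNORA38B, a box H/ACA small nucleolar RNA of the class that guides pseudouridine formation in other RNAs, read 7.90 in control, 7.02 in moderate, 8.87 in profound 1 and 9.27 in profound 2. It was 3.60-fold and 4.78-fold higher than in moderate. SNORA22 read 8.57, 8.29, 9.30 and 9.40, and SNORA70D read 4.48, 3.39, 4.11 and 4.59. In SNORA38B and SNORA22 both arrays labelled profound were above control as well, whereas in SNORA70D control was within their range. Of 109 small nucleolar RNA genes described, 56 were higher in both arrays and 21 lower, against 26.4% and 34.1% of all genes described. At 1.5-fold, 3 (the genes named) were higher in both and 0 lower, against 0.35% and 0.504% of all genes described. Of these 3, SNORA70D passed the level minimum through profound 2 alone, so the count rests in part on the value that let it in. SNORA47 (0.58 and 0.69) and SNORA23 (0.55 and 0.85) were just short of 1.5-fold. The medians of the class were 0.05 in profound 1 and 0.20 in profound 2, and its median was -0.18 in moderate against control. Some small nucleolar RNAs have close copies in the genome, and the class was singled out after its values were seen.

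Of 163 microRNA genes described, MIR642A and MIR3691 were 1.5-fold higher in both and MIR181B1 and MIR324 lower. Over all genes described these shares were 0.35% and 0.504%. MIR642A passed the level minimum through profound 1 alone and MIR3691 through profound 2 alone, so the upward count rests on values that let them in. The arrays read RNA that spans the microRNA gene, not the mature molecule. MIR181B1 read 6.08 in control, 6.70 in moderate, 5.82 in profound 1 and 5.52 in profound 2. MIR181A1HG, the long non-coding RNA of the same locus, read 5.96, 6.31, 5.69 and 5.52, so moderate was the highest array in both rows. MIR181D, at another locus, went the other way at 5.60, 5.60, 6.10 and 6.31, with differences of 0.49 and 0.71. It was picked out after its values were seen, because its mature RNA shares the seed of miR-181b. The other MIR181 microRNA genes lay below the level minimum and were mixed. MIR181B2 was at -0.01 and -0.45, MIR181A1 at -0.01 and -0.04, MIR181A2 at 1.05 and 0.34 and MIR181C at -0.12 and 0.26. MIR642A read 4.59, 3.27, 4.73 and 4.33, and MIR324 read 5.23, 5.86, 5.07 and 5.23, so that in both genes moderate was apart from the other 3 arrays. MIR3691 read 3.70, 3.91, 4.5 and 4.52, close to the level minimum. The 5p sequences below are RefSeq's (build GRCh38.p14), 5′ to 3′, with the seed (bases 2 to 8) in capitals. They are shown because miR-181b and miR-181d carry 1 seed while MIR181B1 and MIR181D, the 2 described, differed in opposite directions.
hsa-miR-181b-5p (chr1:198858925-198858947, minus strand, lower): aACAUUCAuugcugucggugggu
hsa-miR-181d-5p (chr19:13874910-13874932, plus strand, higher): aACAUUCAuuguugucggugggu
hsa-miR-642a-5p (chr19:45674943-45674964, plus strand, higher): gUCCCUCUccaaaugugucuug
hsa-miR-324-5p (chr17:7223343-7223364, minus strand, lower): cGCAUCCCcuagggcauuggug

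The control array divided the genes that passed 1.5-fold into 3 kinds. Control was called beside an array where it lay within 0.2 log2 units of it or beyond it. Of the 34 higher genes, control was beside moderate in 10, between moderate and the nearer array labelled profound in 11, and beside the nearer array labelled profound in 13. Of the 49 lower genes these numbers were 13, 24 and 12. CD38, CD68, SORL1, H6PD and CCL23 were among the higher genes with control beside moderate, and TNF, TNFAIP3, CLEC10A, TSPAN13, MACROH2A2 and FUT7 among the lower ones. In these genes the arrays labelled profound stood apart from both others. In the 25 genes with control beside the nearer array labelled profound, moderate lay to 1 side of the other 3. Among them were ATP6V1E1, MIR642A, CORO2A and GAPT, and in GAPT the other 3 were widely spread. When the mean of moderate and control was the reference, 21 genes were higher and 23 lower at 1.5-fold in both, and 14 and 18 of these were among the 34 and 49. With control alone as the reference the counts were 46 and 30. All these comparisons share both arrays labelled profound.

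**Figure D3:**
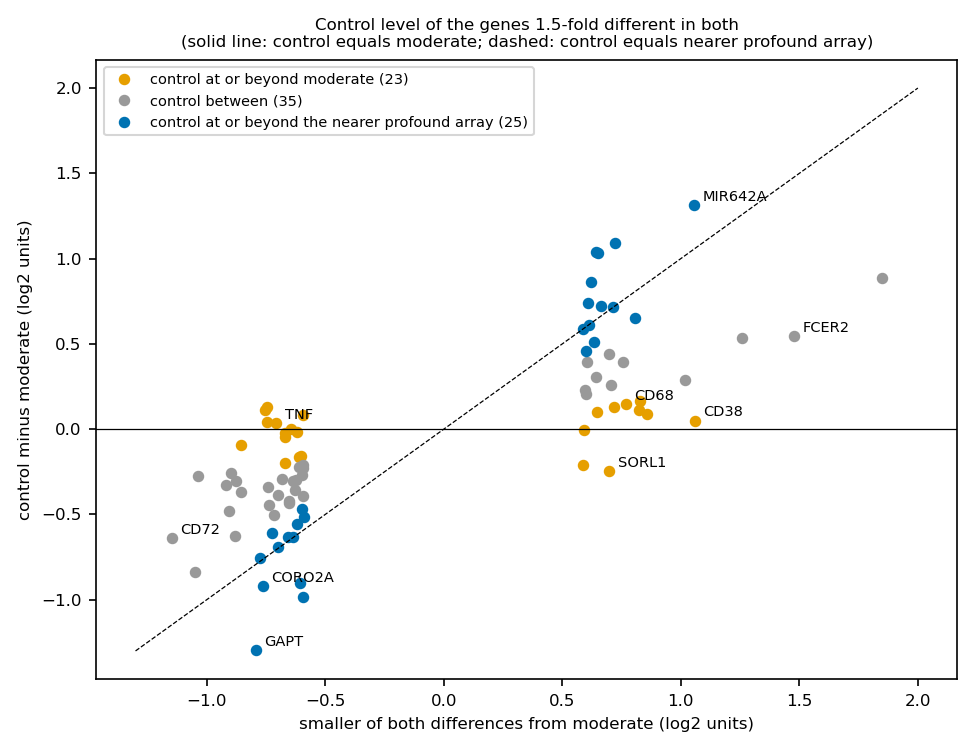
Control minus moderate (vertical axis) against the smaller of both differences from moderate (horizontal axis), in log2 units, for the 83 genes at least 1.5-fold different in both. Orange points have control beside moderate (23 genes, such as CD38 and TNF), grey points control between (35, such as FCER2 and CD72) and blue points control beside the nearer array labelled profound (25, such as GAPT and MIR642A).

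Cell-cycle genes differed between profound 1 and profound 2 more than the lists above, a difference that 1 array each cannot test. Over all genes described, 4.01% were 1.5-fold below moderate in profound 1 and 1.77% in profound 2. Of 38 described genes of G1/S entry and DNA replication, 24 were 1.5-fold below moderate in profound 1 and 0 in profound 2, and 0 were so in both. The differences of these 38 genes ran from -1.09 to 0.13 in profound 1 and from -0.46 to 0.67 in profound 2. Members below moderate in both were led by UHRF1, a maintenance factor of DNA methylation (8.93 in moderate, 8.33 and 8.47 in profound 1 and 2), POLE2, a subunit of DNA polymerase epsilon (6.51, 5.53 and 6.18), and the replicative helicase subunits MCM5 (-0.51 and -0.16) and MCM4 (-0.60 and -0.14). TFDP1, the dimerisation partner of E2F factors, was the 1 member past 1.5-fold in both arrays but in opposite directions (-0.66 and 0.67). Of 33 described G2/M and mitosis genes, all 33 were below moderate in profound 1 and 13 reached 1.5-fold, against 14 below and 0 at 1.5-fold in profound 2. CENPF (-0.55 and -0.21), CDC25C (-0.50 and -0.16), CKS2 (-0.28 and -0.14) and CCNB2 (-0.79 and -0.14) led those lower in both. Of 15 described histone genes, 5 were 1.5-fold lower in profound 1 (median -0.51) and 0 in profound 2 (median 0.03), among them the linker histone gene H1-5 (-0.77 and -0.08). Of 7 described cyclin-dependent kinase inhibitors and pocket proteins 0 reached 1.5-fold in either array. Their furthest values were those of the pocket protein gene RBL1 in profound 1 (-0.57, against -0.02 in profound 2) and of CDKN2A in profound 2 (-0.37, against -0.09 in profound 1).

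Metabolic and stress lists differed between profound 1 and profound 2 in both directions. Glutathione and NRF2 defence genes had medians of 0.10 and -0.02, with 0 of 29 at 1.5-fold in both, and HMOX1, the haem oxygenase gene, was at 1.06 and -0.33. Cholesterol and fatty acid genes had medians of -0.33 and -0.09, with 17 of 25 lower in both, 3 higher in both and 0 at 1.5-fold in both. Among all genes described, 34.1% were lower in both and 26.4% higher. ELOVL6, a fatty acid elongase gene (-0.54 and -0.51), and the sterol isomerase gene EBP (-0.61 and -0.30) were the furthest below in both. MYLIP, an E3 ligase that degrades the LDL receptor, was above (0.67 and 0.43). ATF4 and unfolded protein genes had medians of -0.26 and 0.09, ALDH1L2, a mitochondrial folate enzyme, being at -1.22 and -0.25 and DDIT4, an mTORC1 inhibitor, at 0.38 and 0.57. Oxidative phosphorylation genes were close to moderate, with medians of 0.06 and 0.02 and 0 of 25 at 1.5-fold in either direction. Ribosomal protein genes had medians of -0.07 and -0.01.

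**Figure D4:**
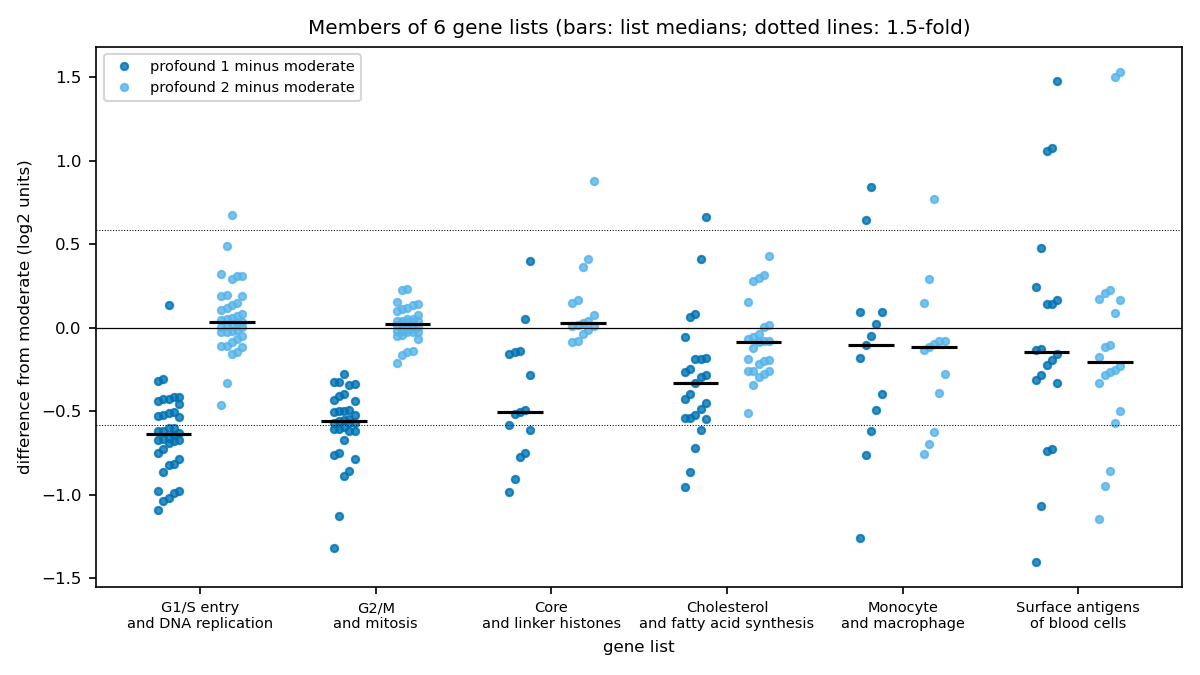
Differences from moderate (log2 units, vertical axis) of the described members of 6 gene lists, dark blue for profound 1 and light blue for profound 2, with the list median as a bar. The G1/S, G2/M and histone lists lie below 0 in profound 1 (medians -0.64, -0.56 and -0.51) and around 0 in profound 2, whereas surface antigens spread to both sides in both arrays.

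The list of MAP kinase feedback genes had medians of -0.09 and 0.06 over 20 members. DUSP6, a phosphatase that limits ERK, read 7.63 in control, 7.77 in moderate and 7.21 in both arrays labelled profound, a difference of -0.56 in each. JUN (-0.37 and -0.62) and FOSB (-0.30 and -0.67), subunits of AP-1, were also lower in both, and 0 members reached 1.5-fold in both. TXNIP, an arrestin-domain protein that limits glucose uptake (0.66 and 0.48), SESN3 (0.85 and 0.39) and the mTOR inhibitor gene DEPTOR (0.72 and 0.44) were higher. Their list of 15 arrestin-domain and FOXO-linked genes had medians of 0.26 and -0.01. In it 6 members were higher in both, 3 lower and 6 on opposite sides, against 26.4%, 34.1% and 39.4% of all genes described. SOX4 was the 1 member at 1.5-fold in both, against 0.854% of all genes described. Among p53 targets TP53INP1 (0.88 and 0.50) was above moderate and the death receptor gene FAS (-0.69 and -0.49) and DDB2 (-0.34 and -0.38) below it, with 0 of 22 at 1.5-fold in both. In the BCL2 family, BAX was at -0.51 and -0.28, BCL2 at -0.27 and -0.24 and BCL2L11 (BIM) at 0.30 and 0.27.

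Lineage lists that name RUNX1-linked, stem cell and KMT2A-fusion genes held 0 members at 1.5-fold in both. Of 19 RUNX1-linked myeloid genes, ELANE (0.27 and 0.23) and LYL1 (0.62 and 0.19) had the largest smaller differences, and the medians were 0.07 and 0.02. MEIS1, a homeobox partner of HOXA9, was at -0.38 and -0.30 and CDK6 at 0.36 and 0.22 in the HOX/MEIS list, whose HOXA members were not analysed here. Of 6 stem and progenitor genes described, NRIP1 (-0.26 and -0.33), EGR1 (-0.39 and -0.24) and KIT (-0.30 and -0.17) were lower in both, and MSI2 (0.02 and -0.93) in profound 2. HLA-DRA was at 0.34 and 0.47 and HLA-DQA1 at -0.39 and -0.26 among MHC class II genes, and the integrin genes ITGA4 (0.40 and 0.39) and ITGB7 (-0.67 and -0.36) also lay on opposite sides. Over 31 lists, 540 distinct genes were described, of which 4 were 1.5-fold higher in both and 10 lower, spread over 8 lists. Over all genes described the shares were 0.35% higher and 0.504% lower. The lists were chosen with earlier results of these data known, so their counts are not set apart from that choice. Medians at or below -0.1 in both arrays were found in 3 lists (surface antigens, stem and progenitor, and monocyte and macrophage genes), and medians of 0.1 or more in both in 1 list, chemokines and their receptors. Surface antigens apart, these directions changed with the setting. The stem and progenitor median in profound 1 was 0.030 with a level minimum of 3.5 and 0.023 with 5.5, with 4.5 in all 3 arrays and with none, where that of profound 2 was 0.011. The chemokine median was -0.13 in profound 2 with 3.5, -0.21 in profound 1 with 5.5 and -0.051 in profound 2 with none. The monocyte and macrophage medians were 0.0097 and 0.036 against the mean of moderate and control.

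**Figure D5:**
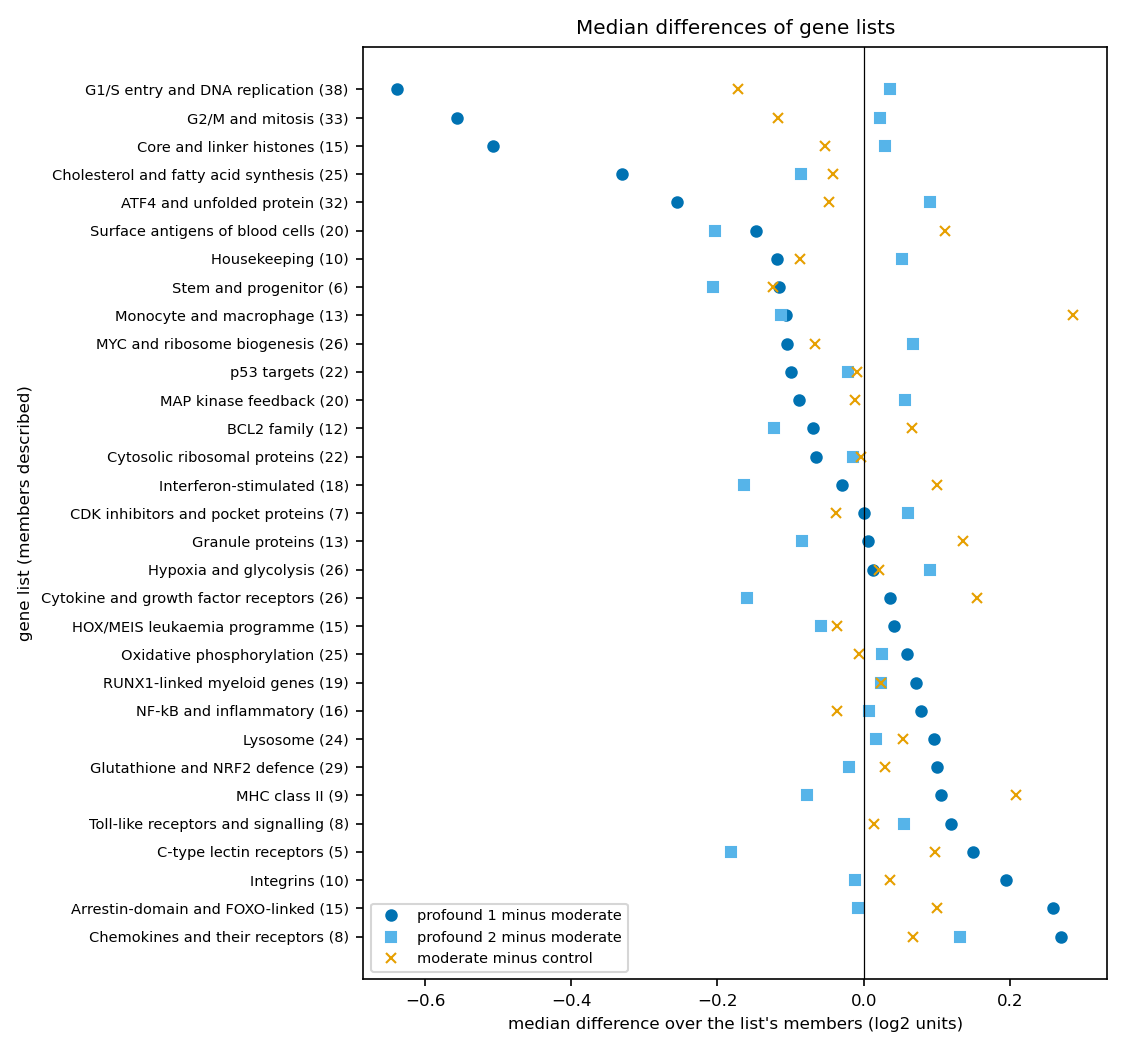
Median difference (log2 units, horizontal axis) of 31 gene lists for profound 1 minus moderate (circles), profound 2 minus moderate (squares) and moderate minus control (crosses), with the number of members described in brackets. The cell-cycle and histone lists have the widest gap between circle and square, and the monocyte list has its cross furthest right (0.29).

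The promoters of the genes that passed 1.5-fold were searched for TGTGGT, the core of the RUNX binding sequence, on both strands (ACCACA on the other), within the 250 bases before the gene start in RefSeq (GRCh38.p14). A promoter was listed for 17 of the 34 higher and 39 of the 49 lower genes. The core was present in 2 of 17 higher genes (11.8%), in 7 of 39 lower genes (17.9%) and in 7.75% of the 7677 genes described that have a listed promoter. These shares are descriptions, the first 2 rest on few genes, and a match is not evidence of binding. IGLL1 holds the core at 2 places, of which the one further from the gene start is shown, and the others hold it once. All 9 stretches follow on the strand of the gene, 5′ to 3′, with the core in capitals and up to 20 bases to each side, so that the sequence beside the core can be compared.
SEL1L3 (chr4:25863705-25863750, minus strand, higher): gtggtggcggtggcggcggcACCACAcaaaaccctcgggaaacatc
H6PD (chr1:9239816-9239846, plus strand, higher): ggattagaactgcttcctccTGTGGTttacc
IL7R (chr5:35856828-35856873, plus strand, lower): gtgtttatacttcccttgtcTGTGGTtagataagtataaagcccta
COQ10A (chr12:56266718-56266763, plus strand, lower): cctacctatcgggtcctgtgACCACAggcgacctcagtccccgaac
DTX4 (chr11:59171199-59171244, plus strand, lower): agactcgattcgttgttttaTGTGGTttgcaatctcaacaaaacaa
C20orf144 (chr20:33662077-33662112, plus strand, lower): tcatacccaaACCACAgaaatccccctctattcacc
FCER1G (chr1:161215233-161215278, plus strand, lower): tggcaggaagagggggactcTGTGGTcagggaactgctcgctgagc
HSPA2 (chr14:64540618-64540663, plus strand, lower): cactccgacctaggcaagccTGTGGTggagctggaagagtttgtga
IGLL1 (chr22:23580483-23580528, minus strand, lower): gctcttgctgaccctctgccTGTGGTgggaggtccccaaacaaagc

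The core lay 43 bases before the gene start in IL7R and 42 in FCER1G, 11 in H6PD and 103 in HSPA2, and between 164 and 240 in the other 5. Of the genes shown, IL7R had the largest difference on the lower side (-1.20 and -0.87) and SEL1L3 on the higher side (1.26 and 1.43). COQ10A, a coenzyme Q-binding protein gene, read 4.97 in control, 5.17 in moderate, 4.5 in profound 1 and 4.46 in profound 2. DTX4, a Deltex E3 ligase gene, read 5.75, 6.18, 5.53 and 5.31, and HSPA2, a member of the HSP70 chaperone family, read 5.38, 5.60, 4.78 and 4.99. The listed windows of FCER2, CD38 and CD72 do not hold these letters.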

How the data were processed

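RNA of MV4-11 cells, 1 culture per hairpin, was read on 4 Affymetrix whole-transcript arrays, 1 per group, labelled from 100 ng of total RNA. The values are log2 RMA signals of 53617 probe sets, as the authors deposited them. The submitters' processing notes name RMA, Affymetrix Expression Console 1.3.1 and Transcriptome Analysis Console 1.0. RMA corrects background, sets the arrays to a common distribution and summarises probes, so a shift of most genes at once is not visible. The genome build behind the probe sets is not given in the sources used here. Precision is limited by the number of arrays.

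Of the probe sets, 23871 carry 1 gene symbol, 1842 carry several and 27904 have none listed in the platform table. Symbols were updated through RefSeq (23212 unchanged, 90 by gene identifier, 565 by synonym, 4 kept), and the probe set of highest mean stood for each of 22357 genes. Differences of log2 values were computed in Python 3.11.15 with pandas 2.3.3, and cyclic loess, an alternative, in R 4.3.3 with limma 3.58.1. The code for the rule of size was run on simulated arrays with the same noise for all genes. That noise gives a narrower spread of differences than that over all genes described, so the run checked the code only.

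The members and gene lists were chosen with earlier results of these data known. Named genes were RUNX1 to RUNX3 and CBFB, the 20 genes each way with the largest smaller difference, up to 4 members of each list by the same measure and all members past 1.5-fold, genes past it in opposite directions, and genes at the level minimum. Other named genes were picked after their values were seen.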

Additional observations from a re-analysis of the deposited data

Results flagged for a closer look

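The differences below were singled out because profound 1 and profound 2 lay on opposite sides of moderate, and with 1 array each the difference between them was not tested. Of the genes described, 4 differed from moderate by at least 1.5-fold in both arrays in opposite directions. TFDP1, the partner of E2F factors, read 7.27 in control, 6.60 in moderate, 5.94 in profound 1 and 7.28 in profound 2 (-0.66 and 0.67). ZCWPW1, a reader of histone methylation, read 4.67, 5.30, 5.99 and 4.69 in the same order (0.69 and -0.62). In both genes control and profound 2 were alike. The small RNA pseudogenes RNA5SP51 (0.72 and -1.11) and RNU7-40P (0.64 and -0.60) were the others. The median of the C-type lectin receptor list, with 5 described members, was 0.15 in profound 1 and -0.18 in profound 2.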

How the results depend on the processing

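No paired analysis was possible because every group has 1 array. The counts below are genes higher and lower in both at 1.5-fold, 34 and 49 as reported. They were 62 and 79 with a level minimum of 3.5, 13 and 24 with 5.5, 15 and 24 with 4.5 required in all 3 arrays, and 84 and 108 with none. At 2-fold the lower genes, 3 as reported, were 6, 1, 1 and 8 under these minimums, and without a minimum the number of genes with the same sign in both profound arrays against moderate was 14281. Among protein-coding genes 20 were higher at 1.5-fold and 3 at 2-fold. With the mean of moderate and control as the reference, 21 and 23 passed 1.5-fold, and 3 and 0 passed 2-fold. When 1 of the arrays labelled profound was left out, between 94 and 171 genes were higher and between 172 and 390 lower, and at 2-fold between 13 and 16 and between 20 and 36. Cyclic loess gave 36 and 41, of which 33 and 40 were among the genes reported.

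All 62 list medians moved by less than 0.1 log2 units under cyclic loess, centring, the mean of probe sets and protein-coding genes alone. Medians close to 0 can change sign within that margin. The stem and progenitor median in profound 1, -0.12 as reported, was 0.030 with a minimum of 3.5 and 0.023 with 5.5, with 4.5 in all 3 arrays and with no minimum, where that of profound 2 was 0.011. The chemokine median was -0.13 in profound 2 with a minimum of 3.5, -0.21 in profound 1 with 5.5 and -0.051 in profound 2 with none. The C-type lectin median in profound 2 was 0.026 with none. Against the mean of moderate and control the monocyte and macrophage medians were 0.0097 and 0.036. These lists gain or lose members with the minimum, and the cause of the other changes was not tested.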
